A study of Mus musculus with 6 samples.

Results

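The genes described here are 10 mouse genes of olfactory xenobiotic metabolism, taken as a named set from the 21911 protein-coding genes annotated on GRCm38 (GENCODE): Cyp2g1, Cyp2a5, Cyp1a2, Cyp2f2, Ugt2a1, Sult1c1, Fmo1, Fmo2, Por and Sec14l3. Their chromatin accessibility was measured by single-cell ATAC-seq, in which a transposase cuts open DNA in single nuclei, in 6 libraries of lineage-traced horizontal basal cells, 3 uninjured and 3 taken 24 h after an injection of methimazole. The mice of both groups carried Krt5CreER, a tamoxifen-inducible Cre driven by a basal keratin gene, together with Rosa26 LSL-YFP/LSL-YFP, a reporter that stays on in descendants of recombined cells. Both groups held mice of 8 weeks (replicate 1), 6 weeks (replicate 2) and 6 to 7 weeks (replicate 3). The dorsal olfactory epithelium of each animal was dissociated separately and sorted for YFP-positive cells that excluded propidium iodide.

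Methimazole is an antithyroid drug that is activated in the olfactory mucosa by monooxygenases and destroys sustentacular cells, Bowman gland cells and, with them, the sensory neurons. Sustentacular and gland cells carry very high levels of drug-metabolising enzymes, which protect the nose and brain from inhaled chemicals but also form toxic products there. Horizontal basal cells are the reserve stem cells that rest beneath this epithelium and divide after such injury. In the first step of the pathway cytochrome P450 and flavin-containing monooxygenases oxidise a chemical, P450 enzymes drawing electrons from the reductase encoded by Por. In the second step glucuronosyltransferases and sulfotransferases attach a polar group.

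The libraries held 420 to 1338 barcodes with at least 2000 fragments (4476 in all) and 14825320 to 44875242 cut sites, both ends of each fragment being counted, of which a median of 78.5 to 82.3% per barcode lay in open regions in uninjured and 75.5 to 77.5% in injured libraries. Every injured library was below every uninjured one in this share, and its part in the differences below was not tested. Uninjured replicate 3 and injured replicate 3 shared 754280 identical fragments (4.50% and 3.92% of their fragments) and 34 barcodes, and pairs among the other 4 libraries shared 0.506 to 3.19%. Injured replicate 2 held 1 barcode of 1746401 fragments, 14.7% of the library, and 629 barcodes were called doublets. Results without these fragments, that barcode and the doublets are given below where a call ended. Levels are given as normalized CPM, cut sites per 1000000 cut sites of the library scaled by TMM factors, or as raw CPM without that scaling. The 8 horizontal basal markers summed to 163 to 219 normalized CPM at their promoters in uninjured and 139 to 190 in injured libraries, with 1 called lower (Icam1, log2 change -0.68, adjusted p = 0.0259) and none at 0 in any library. Markers of other cells were also open. The 7 sustentacular markers summed to 156 to 168 against 114 to 144, with 4 called lower after injury and none at 0. The 6 immune markers summed to 18.1 to 18.7 against 25.7 to 42.4, with 2 called higher, and Ptprc was at 0 in at least 1 library. The 8 neuron markers summed to 58.6 to 64.3 against 48.5 to 75.6.

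Ranked per kilobase of gene body plus 2 kb upstream, Por was the most open of the 10 genes, at a mean of 2.94 normalized CPM per kb (87.4th percentile of the gene bodies tested). Cyp2f2 followed at 1.81, Fmo2 at 1.29, Ugt2a1 at 1.13, Sec14l3 at 0.960 and Cyp2a5 at 0.809, all above the median gene at 0.778. Fmo1 (0.635), Cyp2g1 (0.313), Cyp1a2 (0.253) and Sult1c1 (0.154) were less open than the median gene. Neighbours in the middle of this order overlapped between libraries. Fmo2 ran from 1.11 to 1.68 and Ugt2a1 from 0.959 to 1.45. At the promoters, counted within 1 kb of the first annotated start, all 10 genes lay below the median promoter level of 14.6 normalized CPM, from Fmo2 at 14.1 down to Cyp1a2 at 0.602. For Por this depends on the start. At its most open start, 19125 bp inside the gene, it stood above that level, at a mean of 46.2 in uninjured and 41.1 in injured libraries. That level is a median over first starts, whereas this start is the most open of 9, so the measures are unlike.

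The sequences around the starts differed in base composition. Of the 10 genes, 8 had an entry in the RefSeq promoter table (GRCm38, 250 bases before to 50 after the start). CpG dinucleotides are common in promoters used in many tissues and scarce in promoters of tissue-restricted enzymes. Por held 27 in 300 bases, the other matched genes held 0 to 5, and the median of 32851 promoters was 7. Por and Cyp2f2 are the 2 ends of this range. Shown for each, with CpG in capitals, is the stretch of the window before the first annotated exon in it, 141 bases for Por (chr5:135688895-135689035, plus strand) and the last 200 bases for Cyp2f2 (chr7:27119709-27119908, plus strand).
Por: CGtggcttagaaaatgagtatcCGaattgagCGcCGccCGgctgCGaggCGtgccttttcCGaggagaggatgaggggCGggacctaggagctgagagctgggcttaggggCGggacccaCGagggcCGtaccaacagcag
Cyp2f2: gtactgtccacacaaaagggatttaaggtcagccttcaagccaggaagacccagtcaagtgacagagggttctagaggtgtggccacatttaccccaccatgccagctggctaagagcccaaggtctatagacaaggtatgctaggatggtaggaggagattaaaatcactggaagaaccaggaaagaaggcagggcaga
The Por stretch holds 12 CpG and the Cyp2f2 stretch 0. The letters TATAAA, searched on both strands, were present in 4 of the 8 promoters (Ugt2a1, Cyp2a5, Cyp1a2 and Sult1c1) and in 13.6% of all promoters. The core letters of the xenobiotic response element, GCGTG, were present in 1 of the 8 (Por, 3 matches) and in 32.4% of all promoters. The AP-1 letters TGANTCA were present in 1 of the 8 (Sult1c1) and in 7.81% of all promoters.

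After injury none of the 10 promoters passed the test (edgeR quasi-likelihood test, Benjamini-Hochberg adjusted p under 0.05), where 1.71% of 17140 promoters were called lower and 2.21% higher. At an unadjusted p under 0.05, 2 of the 10 promoters were lower and 0 higher, against 11.4% and 10.4% of all promoters. DESeq2 called 1 of them lower, Cyp2g1, and 0 higher, where it called 2.88% of all promoters lower and 3.79% higher. The log2 change of the promoters had a median of -0.21, against 0.00 over all promoters, and 7 of 10 values were negative. Over gene bodies 1 of the 10, Cyp2f2, was called lower and none higher, where 2.77% of 20305 gene bodies were called lower and 3.58% higher. At an unadjusted p under 0.05, 4 bodies were lower and 0 higher, against 15.2% and 14.1% of all. DESeq2 called Cyp2g1, Cyp2f2 and Ugt2a1 lower and none higher, where it called 6.48% of all gene bodies lower and 8.89% higher. The median log2 change of the bodies was -0.36, against 0.01 over all, and 9 of 10 values were negative. Leaving out 1 library turned the bodies of Cyp1a2 (to 0.12), Sult1c1 (to 0.20) and Por (to 0.0123) positive, and leaving out clusters 6 and 10, described below, turned those of Cyp2g1, Cyp2a5, Cyp1a2 and Sult1c1. The direction also depended on scaling for the promoters of Sult1c1, Fmo1 and Por and the body of Fmo1. With scaling by total cut sites the median promoter itself stood at -0.28, and 7 of the 10 promoters stayed below that median. Fewer cells of a type and less open chromatin per cell cannot be told apart in these summed values.

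**Figure D1:**
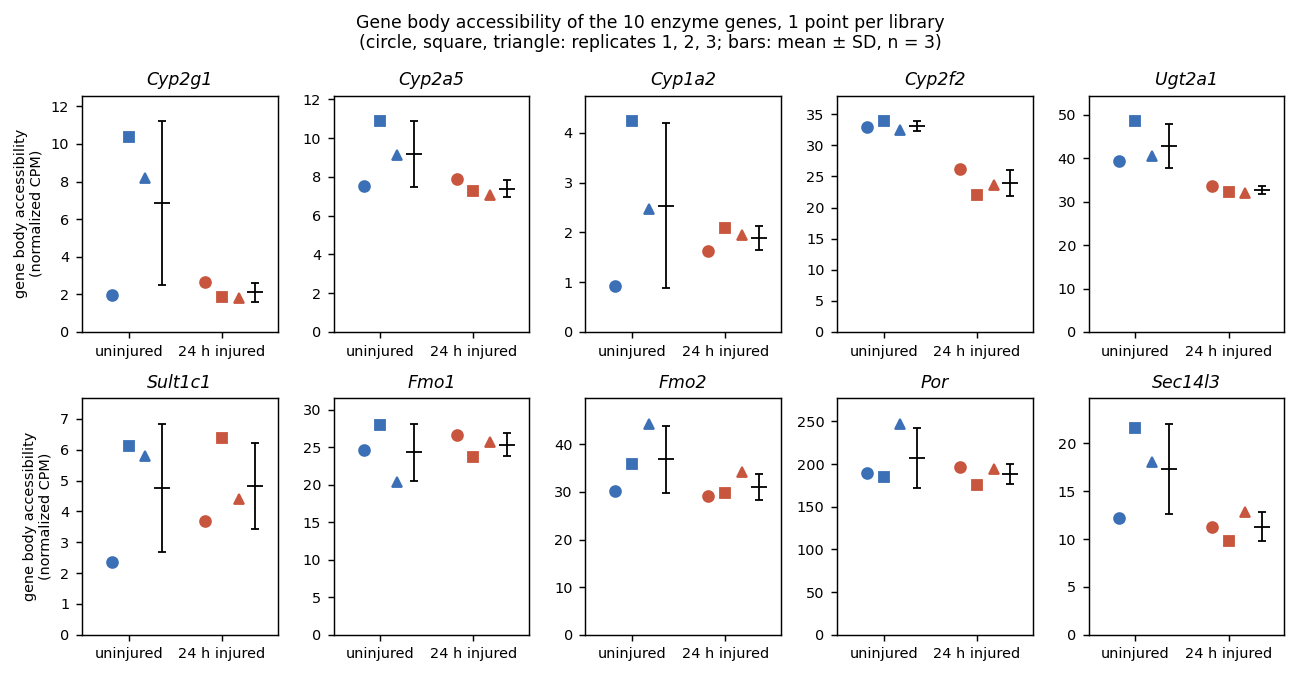
Gene body accessibility (normalized CPM, vertical axis from 0) of the 10 genes in each of the 6 libraries, with circle, square and triangle for replicates 1, 2 and 3, and mean ± SD (n = 3) beside them. The groups separate for Cyp2f2 and Ugt2a1, while uninjured replicate 1 sits among the injured libraries for Cyp2g1 and Sec14l3.

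**Figure D2:**
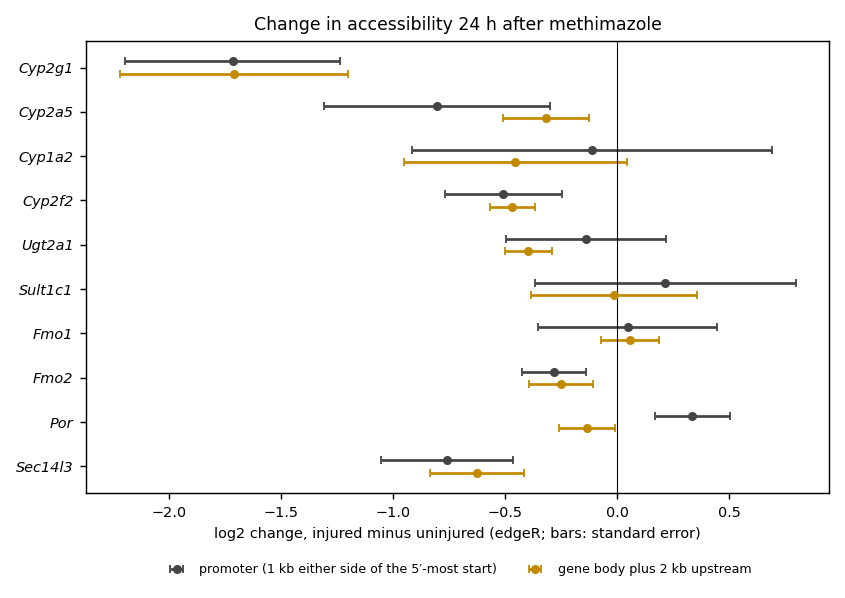
Log2 change (injured minus uninjured, edgeR) with its standard error for the promoter and the gene body of each gene. Cyp2g1 lies farthest below 0, at -1.71 for both windows, and among the gene bodies those of Sult1c1 and Fmo1 lie nearest to 0.

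Cyp2g1 encodes a P450 known from olfactory mucosa (chr7:26808892-26821205, plus strand). Its promoter read 1.08, 3.97 and 2.96 normalized CPM in uninjured replicates 1 to 3 and 1.04, 0.390 and 0.978 in the injured ones. The groups did not overlap, although uninjured replicate 1 stood only just above the highest injured library. It was the only one of the 10 promoters lower without overlap, and none was higher without overlap, against 14.3% and 13% of all promoters. The log2 change was -1.71 (SE 0.48, adjusted p = 0.061). The gene body read 1.97, 10.4 and 8.21 normalized CPM against 2.68, 1.87 and 1.79, or 6.85 ± 4.37 (SD, n = 3) against 2.11 ± 0.493 (SD, n = 3). Here uninjured replicate 1 lay within the injured range, and the log2 change of -1.71 (SE 0.51) had an adjusted p of 0.072. The body values rest on 30 to 350 cut sites per library. With DESeq2 Cyp2g1 passed at the promoter (adjusted p = 0.0208) and over the body (0.0113), and with edgeR the promoter passed without uninjured replicate 1 (0.0477) or injured replicate 3 (0.0475).

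Cyp2g1 fragments were seen in few barcodes. When each barcode was thinned to 2000 fragments, a Cyp2g1 fragment was seen in 0.441, 1.57 and 1.75% of barcodes in the uninjured libraries and in 0.374, 0.238 and 0.268% in the injured ones, or 1.25 ± 0.710% (SD, n = 3) against 0.293 ± 0.0712% (SD, n = 3). Without thinning the shares were 6.29 ± 3.02% and 3.66 ± 0.353%. Neuron-like nuclei gave 0 of 253 and 0 of 154 thinned, which allows up to 1.19% and 1.95%, and 7.11% and 2.60% without thinning. Both unthinned group means lay within the range of the neuron-like clusters, whose median depth was 1.86 and 1.01 times that of their libraries. At the thinned depth a count of 0 limits only the share of barcodes in which a fragment is seen, not the share of nuclei with the gene open, and the thinned injured shares lay below those limits.

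Clustering of the barcodes on their open regions, which include those of the genes described, gave 10 clusters, so the values by cluster are a description with no test. The 79 barcodes with under 20% of their cut sites in open regions are in no cluster. Cluster 2 (1361 barcodes) was called horizontal basal-like because that list stood highest in it (median log2 of 0.58 over the rest, against 0.30 for the sustentacular list), although only 1 of the 8 markers was raised by a factor of 2 or more and none was among its top 10 genes. Of the others, clusters 4 and 8 were neuron-like, cluster 10 (17 barcodes, 82.4% called doublets) was Bowman gland-like, and the other 6 stayed unnamed. The leading genes of cluster 1 (1409 barcodes) were Gm14137, Krt16, Olfr432 and Krt6a, of which Krt16 and Krt6a encode keratins of stressed epithelium. In cluster 1 the immune list stood highest (median log2 of 0.45 over the rest, against 0.16 for the horizontal basal list). None of the immune markers was raised by a factor of 2 or more there, and it stayed unnamed. Cluster 1 held 2, 3 and 6 barcodes of the uninjured libraries against 993, 251 and 154 of the injured ones. Cluster 6 (204 barcodes, 26.96% called doublets) was led by Cyp2g1. Sec14l3, the mucin gene Muc2 and the immune genes Il1b and Cd33 were also among its top 10 genes. The sustentacular list stood highest in it (median log2 of 0.46 over the rest, against 0.24 for the immune list). That median was below the level set for a name, so cluster 6 stayed unnamed. It held 18, 99 and 44 barcodes of the uninjured and 11, 11 and 21 of the injured libraries, and no comparison of the numbers of either cluster is made because genes that differ between the groups helped to define them.

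Cluster 6 held 240 of the 438 Cyp2g1 fragments of all barcodes, clustered or not (54.8%), and cluster 10 another 27 (6.16%). Cluster 9 (117 barcodes) had 92.3% called doublets and a median depth 0.247 times that of its libraries. Of the 40 barcodes with at least 3 Cyp2g1 fragments, 39 were in clusters 6 or 10. Cyp2g1 stood at 66.5 raw CPM in cluster 6, 39.8 in cluster 10 and at most 7.15 in the other 8 clusters, a value of the shallow cluster 9 that is followed by 2.33 in cluster 1. Ugt2a1 (107 against at most 50.0), Sec14l3 (84.0 against 23.6), Cyp2a5 (30.3 against 9.32), Sult1c1 (23.4 against 11.4) and Cyp1a2 (13.4 against 5.72) showed the same order of cluster 6 over those 8 clusters, of which cluster 9 gave the value for Sult1c1 and Cyp1a2. Cyp2f2 (50.9 against 38.8) and Por (317 against 308) were closer to the next cluster. Fmo1 and Fmo2 did not lead there. Fmo1 was most open in the horizontal basal-like cluster 2, at 31.3 against 26.2 in cluster 6, and Fmo2 reached 74.5 in the unnamed cluster 5 against 48.8 in cluster 6.

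**Figure D3:**
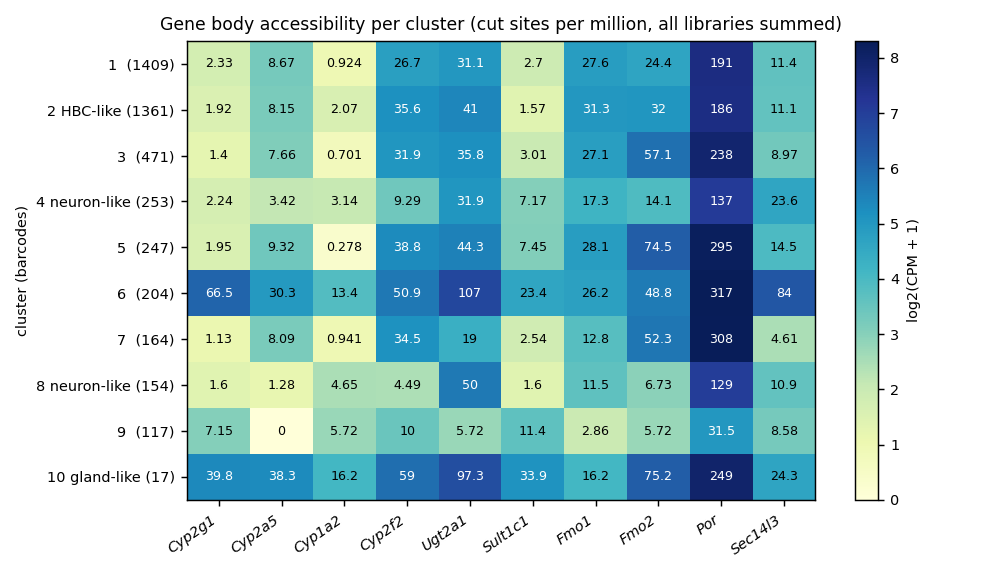
Gene body accessibility (raw CPM, all libraries summed) of the 10 genes (columns) in 10 clusters of barcodes (rows, with their number of barcodes), coloured by log2(value + 1). Cyp2g1, Ugt2a1 and Sec14l3 are highest in cluster 6, whereas Fmo1 peaks in cluster 2 and Por is open throughout.

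Within cluster 6 the Cyp2g1 signal came mainly from uninjured replicates 2 and 3. Its cut sites numbered 4, 260 and 201 in the uninjured and 2, 8 and 2 in the injured libraries, or 7.80, 74.5 and 132 against 6.78, 11.1 and 3.21 raw CPM. Sec14l3 in the same cluster read 33.1, 101 and 144 against 6.78, 2.77 and 12.8 raw CPM. Ugt2a1 read 81.9, 127 and 162 against 27.1, 22.1 and 19.3. Its injured values rest on 8, 16 and 12 cut sites, too few to rank against the 31.1 of cluster 1. Cyp2a5 read 11.7, 36.9 and 44.01 against 0, 19.4 and 1.605. The injured values rest on 2, 2 and 8 cut sites for Sec14l3 and on 0, 14 and 1 for Cyp2a5. Without clusters 6 and 10, a step chosen after the data were seen that by construction takes out the 2 clusters with the highest raw CPM of Cyp2g1, Cyp2g1 stood at 1.70, 1.84 and 1.84 raw CPM in the uninjured and 2.53, 1.48 and 1.77 in the injured libraries. Its log2 change over the gene body was then 0.20 (adjusted p = 0.764) and at the promoter 0.06 (adjusted p = 0.967). The means of the remaining barcodes were 1.79 raw CPM in uninjured and 1.93 in injured libraries. Clusters 6 and 10 are the 2 highest for 7 of the 10 bodies (Cyp2g1, Cyp2a5, Cyp1a2, Cyp2f2, Ugt2a1, Sult1c1 and Sec14l3) and came mostly from uninjured libraries, so for these genes too leaving them out moves the change upward by construction.

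Across the 10 clusters, the genes most like Cyp2g1 outside the set were AU021092 (Pearson r = 0.96), A130010J15Rik (0.96), Nat1 (0.93) and Abca13 (0.92), with log2(raw CPM + 1) over gene bodies as the measure. Nat1 encodes an arylamine N-acetyltransferase. Within the set Sult1c1 (0.89), Cyp1a2 (0.86) and Sec14l3 (0.79) were the most like it, and Por (0.09) and Fmo1 (-0.06) the least. The 10 points share libraries and differ in depth, and clusters 6 and 10 set most of the range.

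Of the other P450 genes, Cyp2a5 (chr7:26835305-26843548, plus strand), a coumarin hydroxylase, read 7.53, 10.9 and 9.13 normalized CPM over its body against 7.88, 7.26 and 7.04, which overlapped (log2 change -0.32, adjusted p = 0.297). Its RefSeq promoter shares 294 of 300 bases with that of Cyp2a4, so reads of these 2 genes may not be told apart and the Cyp2a5 values are uncertain. Cyp1a2 (chr9:57676937-57683703, minus strand), known mainly from liver, had 2 to 45 cut sites per library at its promoter and did not pass at either window (log2 change -0.11 at the promoter, adjusted p = 0.953, and -0.45 over the body, adjusted p = 0.568). In injured replicate 2 a single barcode held 19 of the 24 Cyp1a2 body fragments. Without the deepest barcode the changes were -0.70 and -0.89, and without uninjured replicate 2 they were 1.05 and 0.12, so no direction is read for Cyp1a2.

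Cyp2f2 (chr7:27119909-27133660, plus strand), a P450 that oxidises naphthalene in airway club cells, was lower after injury over its gene body plus 2 kb upstream. The 3 uninjured libraries read 33.0, 33.9 and 32.4 normalized CPM and the injured ones 26.2, 22.0 and 23.6, or 33.1 ± 0.763 (SD, n = 3) against 23.9 ± 2.12 (SD, n = 3). The groups did not overlap. This held for 2 of the 10 bodies, Cyp2f2 and Ugt2a1, in this direction and for 0 in the other, against 18.9% and 15.6% of all gene bodies. For Cyp2f2, the log2 change was -0.47 (SE 0.10, adjusted p = 0.0356). The promoter itself read 3.94 to 7.05 against 3.27 to 4.11 and did not pass (adjusted p = 0.277). The call was lost without doublets (adjusted p = 0.0654), without clusters 6 and 10 (0.0646), with the promoter window removed from the body (0.408) and without uninjured replicate 1 (0.131), uninjured replicate 2 (0.105), injured replicate 1 (0.0903) or injured replicate 2 (0.148). Without uninjured replicate 1, uninjured replicate 2 or injured replicate 2 edgeR called no gene body at all. Losses in those fits are therefore not particular to Cyp2f2. The log2 change stayed between -0.82 and -0.37 in all 18 alternatives.

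Open regions were called over the whole genome without regard to group, and 58 of them touched the 10 genes or their 2 kb upstream, 53 of which had enough counts for the test. Of these, 2 were called lower (at Cyp2f2 and Ugt2a1) and 1 higher (at Por), where 1.55% of 160731 regions were called lower and 5.96% higher. Without overlap between groups, 7 of the 53 were lower and 5 higher, against 11.4% and 15.5% of all regions. On data simulated from these libraries this test recovered only 1 of 200 regions changed by a log2 of 1 and 52 of 200 changed by a log2 of 2, so a region that did not pass may still differ. Recovery was not estimated separately at the levels of the 53 regions. Without injured replicate 2 no region of the genome was called, so a loss in that fit is not particular to a region.

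Regions further inside Cyp2f2 had log2 changes of -0.45, 0.15 and -0.14 and did not pass. The Cyp2f2 region that passed (chr7:27115501-27121000) spans the start, but its summit lies 1635 bp upstream of it, outside the promoter window. That summit lies within the gene body window, which begins 2 kb upstream. The body call and the region call therefore share cut sites and are not separate results. For the region, the values by library follow. It read 31.1, 30.5 and 26.6 normalized CPM in uninjured and 23.3, 19.3 and 17.4 in injured libraries. All injured libraries were below all uninjured ones (log2 change -0.56, SE 0.15, adjusted p = 0.0485). This call was also lost without doublets (0.0681), without the deepest barcode (0.0557), without clusters 6 and 10 (0.107) and without each library in turn except injured replicate 3 (0.0611 to 0.198). The 250 bases with the most cut sites (chr7:27118150-27118399, plus strand) hold 34.6% of the region's cut sites and are shown as the summit of the region that passed. They hold no match to the AP-1 letters TGANTCA on either strand. The whole region holds 2 matches, and 77.3% of 97 open regions of its width hold a match.
Cyp2f2 summit: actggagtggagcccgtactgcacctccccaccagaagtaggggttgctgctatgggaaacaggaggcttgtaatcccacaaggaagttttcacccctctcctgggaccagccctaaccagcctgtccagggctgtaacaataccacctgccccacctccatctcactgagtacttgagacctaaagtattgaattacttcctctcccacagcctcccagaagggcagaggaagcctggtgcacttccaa

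**Figure D4:**
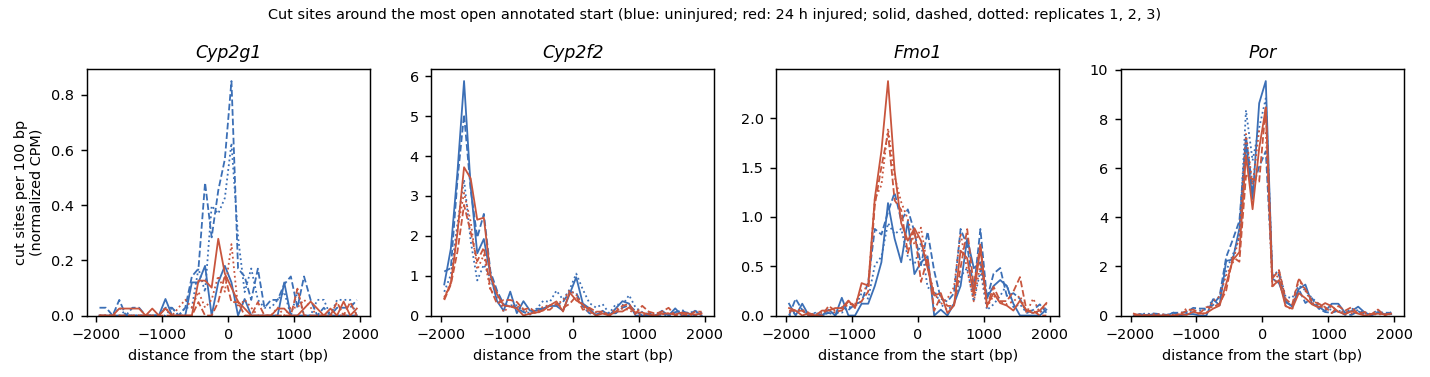
Cut sites per 100 bp (normalized CPM, vertical axes differ) by distance from the most open annotated start (bp) of Cyp2g1, Cyp2f2, Fmo1 and Por, 1 line per library (blue uninjured, red injured). Cyp2f2 peaks about 1.65 kb before its start, with the injured lines between 2.78 and 3.72 and the uninjured between 3.41 and 5.88 there, while the Por lines run together.

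Ugt2a1 encodes an olfactory glucuronosyltransferase (chr5:87459490-87490871, minus strand). Its body read 39.4, 48.5 and 40.4 normalized CPM against 33.6, 32.1 and 32.02, without overlap (log2 change -0.40, SE 0.10), and missed the threshold (adjusted p = 0.0545). It passed with DESeq2 (adjusted p = 0.0261) and with a replicate block (adjusted p = 0.0460). One intronic region (chr5:87468501-87473000), whose cut sites are also counted in the body and are thus no separate result, passed. It read 18.3, 20.1 and 19.5 normalized CPM in uninjured and 9.73, 10.7 and 10.5 in injured libraries, or 19.3 ± 0.922 (SD, n = 3) against 10.3 ± 0.497 (SD, n = 3). Each injured library was close to 10 and each uninjured one close to 19, and the log2 change was -0.91 (SE 0.15, adjusted p = 0.0102). The region overlaps no annotated exon and lies within the bodies of Ugt2a2 and Gm43638 as well, which share the locus, so it cannot be assigned to Ugt2a1 alone. The Ugt2a2 body lies within that of Ugt2a1 and holds this region. Its edgeR call (log2 change -0.51, adjusted p = 0.0320) therefore rests on shared cut sites and is no separate result.

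This difference stayed past the threshold outside the 2 clusters with the highest raw CPM of Cyp2g1. Without clusters 6 and 10 the log2 change was -0.81 (adjusted p = 0.0196), and without doublets -0.89 (adjusted p = 0.00905). It missed the threshold without uninjured replicate 1 (0.0561), uninjured replicate 2 (0.0590) or injured replicate 2 (0.0612), at log2 changes of -0.95, -0.88 and -0.93. By cluster the region stood at 21.02 raw CPM in the horizontal basal-like cluster 2 and 22.8 in the unnamed cluster 3, but at 7.09 in cluster 1. It was highest in clusters 10 (33.9), 6 (30.4) and 5 (29.7) and stood at 12.9 in cluster 7. It was lower than in cluster 1 in the neuron-like clusters 4 (4.03) and 8 (3.20), and no cut site fell there in cluster 9. The low level in cluster 1 was present in each injured library, at 6.34, 8.39 and 6.82 raw CPM, where cluster 3 of the same libraries read 26.3, 24.1 and 20.6 and cluster 2 read 14.6, 16.7 and 27.03. Cluster 1 read 12.4, 13.2 and 19.1 in the uninjured libraries, on 2, 4 and 10 cut sites. The values of cluster 2 over all libraries come mostly from uninjured barcodes and those of cluster 1 from injured ones.

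The sulfotransferase gene Sult1c1 (chr17:53961615-53990674, minus strand) was the least open per kb of the 10. Its body read 2.36, 6.11 and 5.81 normalized CPM in uninjured and 3.68, 6.37 and 4.39 in injured libraries, and the groups overlapped (log2 change -0.01, adjusted p = 0.986).

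The flavin-containing monooxygenase genes lie side by side on chromosome 1. Fmo1 (chr1:162829561-162866610, minus strand) read 20.4 to 27.9 normalized CPM over its body in uninjured and 23.6 to 26.6 in injured libraries (log2 change 0.06, adjusted p = 0.786). Its most open annotated start lies 6896 bp inside the gene, where the libraries read 8.39, 12.6 and 8.42 against 13.9, 12.5 and 13.5, so that injured replicate 2 lay within the uninjured range (log2 change 0.43, adjusted p = 0.149). Fmo2 (chr1:162874317-162898726, minus strand) read 30.3 to 44.3 over its body against 29.2 to 34.2 (log2 change -0.25, adjusted p = 0.266). Neither gene had an open region that passed, and the groups did not overlap at 3 of the 6 regions of Fmo1 (1 lower and 2 higher) and at 1 of the 5 of Fmo2 (lower), where 11.4% of all regions were lower and 15.5% higher in this way.

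Por (chr5:135670033-135735326, plus strand) did not pass over its body, at 189, 185 and 247 normalized CPM against 196, 175 and 194 (log2 change -0.13, adjusted p = 0.497). At its first annotated start the promoter read 10.1, 10.03 and 15.7 against 16.6, 13.7 and 15.2, which overlapped (log2 change 0.34, adjusted p = 0.260), and it passed without uninjured replicate 3 (log2 change 0.59, adjusted p = 0.0374). Its most open start lies 19125 bp inside the annotated gene, next to the CpG-rich stretch printed above. There the libraries read 46.2, 43.2 and 49.1 against 39.2, 40.6 and 43.6, a log2 change of -0.17 (adjusted p = 0.221). An intronic region of Por (chr5:135710001-135715000) was higher after injury. It read 3.63, 5.33 and 8.08 normalized CPM in uninjured and 14.4, 14.4 and 9.57 in injured libraries, or 5.68 ± 2.24 (SD, n = 3) against 12.8 ± 2.77 (SD, n = 3). The groups did not overlap, with the libraries of replicate 3 closest to each other (log2 change 1.15, SE 0.31, adjusted p = 0.0484). The call was kept without clusters 6 and 10 (log2 change 1.16, adjusted p = 0.0455).

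The Por intron call was lost without doublets (0.0604), with total cut sites as the only scaling (0.0513) and without uninjured replicate 1 (0.167), uninjured replicate 2 (0.171), injured replicate 1 (0.169) or injured replicate 2 (0.1996). With a stricter threshold for open regions (10 times the median tile) the region split in 2 pieces, of which chr5:135713001-135714000 had a log2 change of 1.93 (adjusted p = 0.0301) and the other 0.40 (adjusted p = 0.525). By cluster the region stood at 15.9 raw CPM in cluster 6, 14.4 in cluster 7, 14.1 in cluster 1 and 12.8 in cluster 3, against 4.80 in the horizontal basal-like cluster 2. Of the 164 barcodes of cluster 7, 154 came from uninjured replicate 3. The 250 bases with the most cut sites (chr5:135713552-135713801, plus strand) hold 34.1% of the region's cut sites. They contain 1 match to the AP-1 letters TGANTCA, in capitals, as do 14.2% of 21229 windows of that length at the centres of open regions on the same chromosomes (5 and 7). Those windows were not chosen for the most cut sites. The whole Por region holds 2 matches, as the Cyp2f2 region does, and 81.6% of 114 open regions of its width hold a match. AP-1 is a family of transcription factors induced by stress and wounding.
Por intron summit: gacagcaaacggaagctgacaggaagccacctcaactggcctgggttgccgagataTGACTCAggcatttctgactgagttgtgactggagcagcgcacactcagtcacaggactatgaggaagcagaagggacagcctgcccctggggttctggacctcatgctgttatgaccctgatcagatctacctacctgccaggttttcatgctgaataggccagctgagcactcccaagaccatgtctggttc

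**Figure D5:**
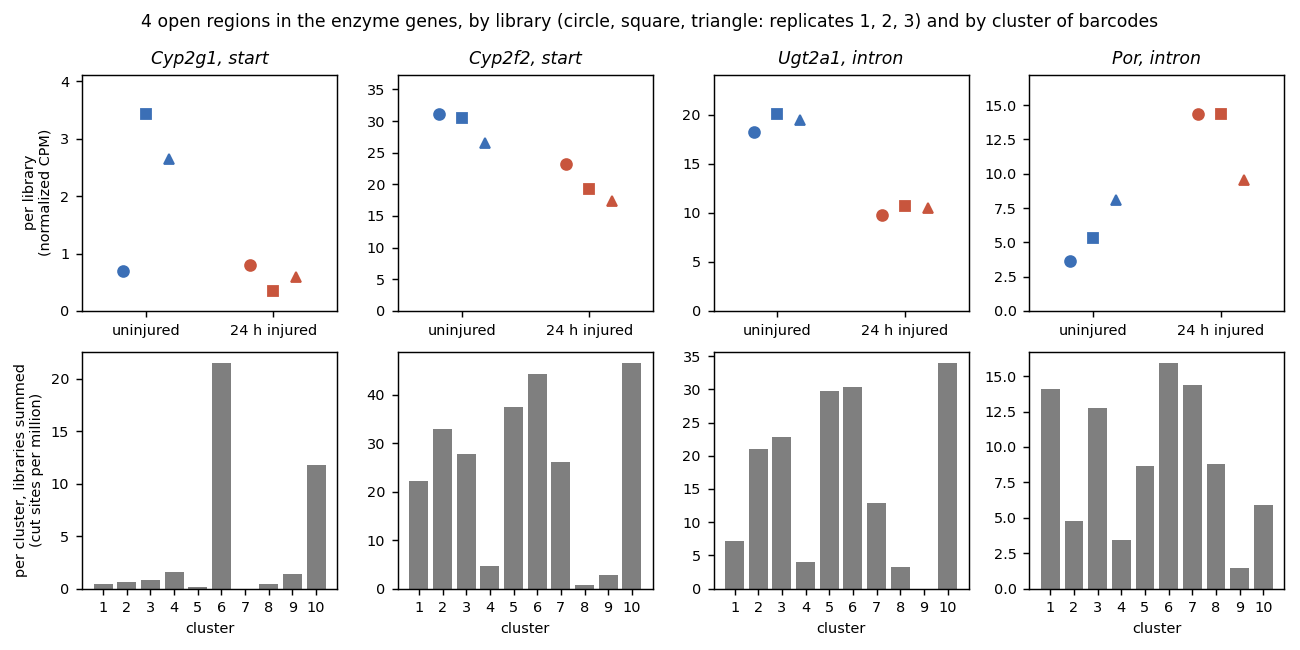
Top, accessibility (normalized CPM) of 4 open regions in each library, at the start of Cyp2g1, the start of Cyp2f2, an intron of Ugt2a1 and an intron of Por. Bottom, the same regions by cluster of barcodes (raw CPM, libraries summed). The Ugt2a1 region is lower in clusters 1, 4, 7, 8 and 9 than in clusters 2 and 3. The Por region is highest in clusters 6, 7 and 1, and the Cyp2g1 region is highest in clusters 6 and 10.

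Sec14l3 (chr11:4064841-4077736, plus strand) encodes a lipid-binding protein of the Sec14 family. Its body read 12.2, 21.6 and 18.1 normalized CPM in uninjured and 11.3, 9.76 and 12.8 in injured libraries. Uninjured replicate 1 again lay within the injured range, as for Cyp2g1, and the log2 change of -0.62 (SE 0.21) had an adjusted p of 0.0925. Clusters 6 and 10 are also the 2 clusters with the highest raw CPM of Sec14l3, so that leaving them out lowers its signal by construction, and the log2 change was then -0.06 (adjusted p = 0.839).

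Summed over the 10 genes, gene bodies took 351, 395 and 446 raw CPM in uninjured and 324, 294 and 339 in injured libraries. Without Por, which gave the largest part, the sums were 157, 205 and 189 against 136, 128 and 144. Without Por and without clusters 6 and 10 the means were 157 ± 5.49 (SD, n = 3) and 136 ± 8.12 (SD, n = 3). None of these sums is scaled by TMM factors. Those of the bodies ran from 1.03 to 1.04 in uninjured and from 0.947 to 1.003 in injured libraries, so scaling would bring the groups closer. Without the deepest barcode injured replicate 2 stood at 327 raw CPM, and at 140 without Por.

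Other genes of xenobiotic metabolism, a list of 91 genes that holds enzymes, transporters, regulators and 4 other Sec14 family genes and of which 90 were annotated, held calls in both directions. At promoters 2 of 81 tested were higher and 3 lower, against 2.21% and 1.71% of all promoters, with a median log2 change of 0.02. Cyp2b10, a P450 inducible by drugs in liver, read 0.720, 1.16 and 1.71 normalized CPM against 5.01, 6.14 and 2.68 (log2 change 1.89, adjusted p = 0.0174). Cyp2s1, an epithelial P450, read 9.79, 8.39 and 10.8 against 17.8, 16.6 and 19.6 (log2 change 0.90, adjusted p = 0.00365). Both genes separated the groups completely. The 3 lower promoters were Cbr2 (-0.65), Gstm1 (-0.56) and Ces1d (-0.55), which encode a carbonyl reductase, a glutathione transferase and a carboxylesterase. The calls of Cyp2b10, Gstm1 and Ces1d were each lost without any one of uninjured replicates 1 and 2 and injured replicates 1 and 2, and that of Cbr2 without uninjured replicate 1. Of 19 alternatives, 14 kept the call of Cyp2b10, 14 that of Ces1d, 18 that of Cbr2 and only 9 that of Gstm1. The Cyp2s1 promoter held in 18 of 19 alternatives and was lost with scaling from 10 kb bins.

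Over gene bodies 4 of 90 were higher and 5 lower, against 3.58% and 2.77% of all gene bodies, with a median log2 change of 0.01. The higher ones were Ahrr, the repressor of the aryl hydrocarbon receptor (log2 change 1.13, adjusted p = 0.0176), the efflux pump gene Abcb1a (1.08, 0.0453), the xenobiotic receptor gene Nr1i2 (0.71, 0.0362) and Cyp2s1 (0.50, 0.0364). Ahrr read 10.4, 9.49 and 12.6 normalized CPM in uninjured and 20.8, 22.6 and 27.6 in injured libraries. The lower ones were Cbr2 (-0.66), Ugdh (-0.56), Ugt2a2 (-0.51), Ces1d (-0.46) and Cebpb (-0.45). The Ugt2a2 body lies within that of the member Ugt2a1, and the 2 share cut sites. None of these 9 bodies was called without injured replicate 1. Without uninjured replicate 1, uninjured replicate 2 or injured replicate 2 edgeR called no gene body at all. Losses in those fits are therefore not particular to these genes. Of 18 alternatives, the calls were kept in 7 (Cebpb) to 14 (Ugdh). Cbr2 is also among the 7 sustentacular markers, of which Muc2 (-1.46), Ermn (-1.36) and Steap4 (-0.60) were the other promoters called lower. Of 19 alternatives, only 9 kept the call of Muc2, against 19 for Ermn and 15 for Steap4. Whether the sustentacular and immune signal in the libraries had a part in these differences was not tested.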

How the data were processed

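Single-cell ATAC-seq was analysed from 6 libraries, 3 uninjured and 3 injured, biological replicates per the labels. The deposited fragment files list deduplicated fragments with counts of read pairs, made by the authors with Cell Ranger 2.0.0 on mm10 per the submitters' processing notes; the matrix headers name software version 1.2.0. The peak matrices were not used. Here both ends of each fragment of barcodes with at least 2000 fragments were counted as cut sites and summed per library, since barcodes are not replicates. Open regions were merged 500 bp tiles at 5 or more times the median tile. Counts were tested with edgeR 4.0.16 (quasi-likelihood, robust, TMM, filterByExpr) under R 4.3.3; p-values were adjusted (Benjamini-Hochberg) over all promoters, gene bodies or regions, with a threshold of 0.05. DESeq2 1.42.0 was an alternative. Normalized CPM are cut sites per 1000000 scaled by TMM factors, and raw CPM are not scaled. Tested on simulated data, the fit recovered 171 of 200 promoters and 164 of 200 bodies changed by a log2 of 1. It also called 21 promoters and 16 bodies that were left unchanged. Recovery was not estimated separately at the levels of the genes described. Their promoters ran from 14.1 (Fmo2) down to 0.602 normalized CPM (Cyp1a2), below the median promoter at 14.6. The standard errors of their log2 changes ran from 0.14 (Fmo2) to 0.80 (Cyp1a2). A promoter of these genes that did not pass may therefore still differ.

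Barcodes were clustered with scanpy 1.11.5 (30 components, resolution 0.5). Doublets were called from an excess of autosomal stretches covered by more than 2 fragments of 1 barcode and were kept, with fits without them as an alternative. Named genes are the 10 members, the 5 genes of the other xenobiotic list with the largest change per direction among those called, the sustentacular markers, and the genes most like Cyp2g1, of which 4 are given. A further gene of that rule and 1 sequence are not reported here. The members and lists were chosen with earlier results of these data known. Same-numbered libraries of both groups deviated together at 12239 promoters (correlations 0.209, 0.318 and 0.321), so the replicate number was used as a block in an alternative. Depth was 14825320 to 44875242 cut sites, and intervals and limits for shares (95% Wilson, 3 counts for a count of 0) cover counting error only.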

Additional observations from a re-analysis of the deposited data

How the results depend on the processing

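The replicate block gave 774 promoters higher and 1010 lower, none of them a member, 1201 bodies higher and 1170 lower, with 2 members lower (Cyp2f2 and Ugt2a1), and 4162 regions lower. It turned the Sult1c1 body to 0.0715 and ended no call on a member's window or region. At bodies the same-number correlations were 0.0822, 0.335 and 0.307. DESeq2 called 624 promoters higher and 474 lower (1 member, Cyp2g1) and 1734 bodies higher and 1264 lower (3 members), with Sult1c1 at 0.0104. With scaling from 10 kb bins, 9808 promoters (5 members) and 7107 bodies (7 members) were lower and 421 bodies higher, leaving 2.69% and 5.59% of calls higher; promoters of Sult1c1 (-0.30), Fmo1 (-0.50) and Por (-0.20) and the Fmo1 body (-0.29) turned negative. With total cut sites, 6589 promoters (4 members), 1845 bodies (3 members) and 5388 regions were lower, with 5.95%, 27.2% and 63.8% of calls higher against 56.3%, 56.4% and 79.3%; Sult1c1 (-0.0532) and Fmo1 (-0.24) promoters and the Fmo1 body (-0.0319) turned. With no filter on low counts the Cyp2g1 promoter passed with edgeR (log2 change -1.73, adjusted p = 0.043). Barcodes with 20% of cut sites in open regions gave 193 promoters and 306 bodies lower, with Sult1c1 (-0.20) and Fmo1 (-0.0501) promoters turned. Without doublets 459 bodies were higher and 219 lower, 0 of them members, and the Sult1c1 promoter stood at -0.16. Without the deepest barcode 195 promoters and 277 bodies were lower, Sult1c1 at -0.0384. Without clusters 6 and 10, 164 promoters were lower and the Cyp2f2 body missed the threshold (log2 change -0.38, edgeR adjusted p = 0.0646). The promoters of Cyp2g1 (0.0598), Cyp2a5 (0.31) and Ugt2a1 (0.47) and the bodies of Cyp2g1 (0.20), Cyp2a5 (0.0402), Cyp1a2 (0.27) and Sult1c1 (0.65) turned positive. The uninjured sum without Por was then 156.85 raw CPM and Cyp2g1 1.79 raw CPM. A 500 bp window gave 179 promoters lower; the most open start put Por at -0.17; all barcodes put the Sult1c1 body at 0.0572; bodies without promoter gave 388 higher and 260 lower, with Fmo1 at -0.12. Shares without thinning were 6.29% and 3.66%.

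Leaving out 1 library gave 69 to 766 promoters higher and 31 to 610 lower, with 0 to 1 member lower (Cyp2g1) and 0 to 1 higher (Por, without uninjured replicate 3). Bodies ranged from 0 to 1741 higher and 0 to 1353 lower, with 0 to 1 member lower, and regions from 0 to 17571 higher and 0 to 4905 lower. edgeR called 0 bodies without uninjured replicate 1, uninjured replicate 2 or injured replicate 2 (at unadjusted p under 0.05, 2078, 2479 and 2128 higher and 1981, 2487 and 1750 lower), and 0 regions without injured replicate 2 (17311 and 8766 unadjusted). DESeq2 was not run on these subsets. For members whose sign turned, the log2 change ranged at the promoter from -0.7244 to 1.05 (Cyp1a2), from -0.29 to 0.0775 (Ugt2a1), from -0.17 to 0.7207 (Sult1c1) and from -0.25 to 0.3192 (Fmo1), and over the body from -0.8289 to 0.12 (Cyp1a2), from -0.3184 to 0.20 (Sult1c1), from -0.0589 to 0.1738 (Fmo1) and from -0.21 to 0.0123 (Por). The cause of these shifts was not tested. A fit without sustentacular-like clusters was not run, since no cluster was given that name.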
